A study of Mus musculus with 30 samples.

Results

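The genes described here are 10 genes of the bone morphogenetic protein (BMP) response: the inhibitor of differentiation genes Id1, Id2, Id3 and Id4, the homeobox genes Msx1 and Msx2, the pathway inhibitors Bambi, Smad6 and Smad7, and the ligand gene Bmp4. They were taken by gene symbol, and 15 of the 22690 probe sets of the array carry 1 of these symbols. Together they make up 10 of the 12394 genes that the array measures with at least 1 probe set of a single symbol. The brightest probe set stood for each gene; Id2 and Id4 have 3 probe sets each and Msx1 has 2. Several of the 10 were picked because their signals were known to be lower after brain-derived neurotrophic factor (BDNF) in these dishes, chiefly Msx2, Id3 and Id1 at 48 h in wild type and Id2 at 24 h in the knockout. All BDNF differences of these genes are therefore given as descriptions with a standard error (SE) and without a p-value, and nothing is read from counts of them.

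BMPs are secreted factors of the transforming growth factor beta superfamily. They bind paired type I and type II receptor kinases, which phosphorylate SMAD1, SMAD5 and SMAD9, and these enter the nucleus with SMAD4 and bind GC-rich sites near genes such as the Id genes. ID proteins lack a DNA-binding region and hold back basic helix-loop-helix (bHLH) factors, among them those that drive neuronal differentiation, by pairing with their partners. In the embryonic forebrain BMPs come mainly from the dorsal midline and from the overlying meninges, and Msx1 and Msx2 mark tissue that receives this signal.

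The study asked how BDNF acts on cultured telencephalon cells that lack XBP1, which switches on genes for protein folding in the endoplasmic reticulum. Cells from the telencephalon of mouse embryos at embryonic day 12.5 were pooled from 6 Xbp1 -/- embryos (knockout) and from 4 Xbp1 +/+ embryos (wild type), all from matings of Xbp1 +/- parents, and each pool was spread over 15 culture dishes in serum-free medium. In each genotype 5 dishes received no BDNF and were lysed on day 4 in vitro (basal), 5 received 100 ng/ml BDNF for 24 h and were lysed on day 4, and 5 received the same dose for 48 h and were lysed on day 5. RNA of each dish was hybridised to 1 array, which gives 30 arrays. With 1 pool per genotype, p-values measure the spread between dishes of that pool, which may be technical, and genotype and pool cannot be told apart. At 48 h the length of BDNF treatment and the day in culture differ together, with no untreated dish of day 5.

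The signal at 7 of the 10 genes was set beside a promoter sequence from RefSeq (mouse assembly GRCm38.p6). Each sequence ran from 250 bases before to 50 bases after the annotated start of the gene. The promoters of Id1, Bambi and Smad7 were not searched, so the counts given here do not describe all 10 genes. GGCGCC and GGAGCC are GC-rich words bound by SMAD1 and SMAD5, and CAGAC is a word bound by SMAD3 and SMAD4. The search covered both strands and exact letters. GGAGCC stood in 7 of the 7 promoters and in 30.85% of the 32851 promoters of this length in the table. Its palindromic relative GGCGCC stood in 2 of the 7, Id2 and Id4, and in 11.87% of all. CAGAC stood in 1 of the 7, that of Id3, and in 49.59% of all. The 7 promoters held 60.0% to 73.33% G and C, above the median of 52.67% over all promoters. A match describes the letters only.

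Shown are the 250 bases before the start of Id3 and Msx2, whose group means differed most, and of Id2 and Id4, which carry GGCGCC. They are written 5′ to 3′ on the strand of the gene, and capitals mark GGCGCC or GGAGCC on either strand. Id3 lies at chr4:136143572-136143821 (plus strand), Msx2 at chr13:53472781-53473030 (minus strand), Id2 at chr12:25096093-25096342 (minus strand) and Id4 at chr13:48260866-48261115 (plus strand).
Id3: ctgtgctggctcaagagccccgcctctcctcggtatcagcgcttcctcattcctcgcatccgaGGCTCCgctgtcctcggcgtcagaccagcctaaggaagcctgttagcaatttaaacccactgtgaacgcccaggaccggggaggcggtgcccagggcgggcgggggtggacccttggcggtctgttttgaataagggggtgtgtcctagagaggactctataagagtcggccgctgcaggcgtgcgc
Msx2: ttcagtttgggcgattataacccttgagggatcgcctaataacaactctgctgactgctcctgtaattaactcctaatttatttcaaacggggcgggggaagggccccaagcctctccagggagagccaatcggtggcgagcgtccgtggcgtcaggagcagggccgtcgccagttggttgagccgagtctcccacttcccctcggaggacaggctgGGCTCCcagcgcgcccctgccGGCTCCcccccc
Id2: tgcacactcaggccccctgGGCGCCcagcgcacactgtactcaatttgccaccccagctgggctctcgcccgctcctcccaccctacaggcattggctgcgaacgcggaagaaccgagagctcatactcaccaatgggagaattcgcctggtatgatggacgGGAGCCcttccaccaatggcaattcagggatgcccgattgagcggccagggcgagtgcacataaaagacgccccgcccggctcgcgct
Id4: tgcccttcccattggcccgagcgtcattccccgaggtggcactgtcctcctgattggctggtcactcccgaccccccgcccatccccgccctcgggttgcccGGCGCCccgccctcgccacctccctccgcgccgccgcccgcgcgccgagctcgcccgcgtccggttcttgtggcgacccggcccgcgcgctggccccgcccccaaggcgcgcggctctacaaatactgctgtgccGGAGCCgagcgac

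Levels are log2 signals relative to the median of the array, so that 0 is the median probe set of the array and each step of 1 is a doubling. Array medians ranged from 81.9 to 138 intensity units, no 2 arrays were identical, and arrays of 1 group correlated with r of at least 0.983 across genes. Xbp1 itself was read in both genotypes: its brightest probe set lay between 4.37 and 4.82 in wild type and between 4.53 and 4.87 in the knockout, and another lay at 1.23 to 2.07 in wild type against 2.63 to 2.92 in the knockout. Since the deleted stretch of Xbp1 is not named in the labels, these probe sets do not check the genotype. The telencephalic genes Lhx2, Dlx1, Dlx2 and Pax6 were read as markers of the tissue. The neuronal markers summed to 188 to 243 array medians in wild type dishes and 176 to 232 in knockout dishes, with overlap. Calls of single neuronal markers are given with the other cell types below. Low signals were kept out of the tests: 7436 genes, those in the upper 60% when ranked by their mean log2 signal (above -0.40), were tested. Of the 10 genes, 9 were tested. Msx2 (mean -0.32) and Bambi (-0.27) passed just inside this limit, and Smad6 (-1.33) fell outside it. Msx2 passed through the knockout dishes, since its 3 wild type group means (-0.53, -0.73 and -1.82) lay below the limit, so its genotype differences are given without a p-value.

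Bmp4 encodes the ligand of the set and was higher in the knockout. In basal dishes its level was 1.77, 1.59, 2.21, 1.68 and 2.04 in wild type dishes and 2.85, 2.67, 2.89, 2.84 and 3.43 in knockout dishes. All 5 knockout dishes lay above all 5 wild type dishes. The difference, knockout minus wild type, was 1.08 ± 0.14 on the log2 scale (SE, 5 dishes per group), 2.11-fold, and passed the test (limma, Benjamini-Hochberg adjusted over 7436 genes, two-sided, adjusted p = 3.61e-07). After 24 h of BDNF the levels were 1.57, 1.89, 1.86, 1.58 and 1.42 in wild type dishes and 2.44, 2.92, 3.04, 2.81 and 2.73 in knockout dishes, again without overlap (1.12 ± 0.14, limma adjusted p = 2.04e-07).

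At 48 h the 5 wild type dishes read 1.02, 0.99, 1.20, 1.54 and 1.76 for Bmp4, and the knockout dishes 2.74, 3.03, 2.75, 3.02 and 2.71. Wild type thus ran lower than its basal dishes by a mean of 0.56 (log2 difference -0.56 ± 0.14), with overlap between the groups. The knockout stayed near its basal level (-0.08 ± 0.14), also with overlap. The wild type difference was -0.24 without rescaling of the arrays, -0.82 with a measure of RNA quality in the fit and -0.85 with the 48 h replicates 1 and 2 alone.

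Id3, which encodes an ID protein induced by BMP signalling in many cell types, showed the widest separation of genotypes. In basal dishes its level was 1.53, 1.22, 1.34, 1.74 and 1.53 in wild type dishes and 2.94, 2.62, 2.97, 2.97 and 2.97 in knockout dishes. At 24 h the values were 1.28, 1.20, 1.20, 1.10 and 0.87 against 2.51, 2.47, 2.71, 2.46 and 2.28. By 48 h wild type read 0.89, 0.46, 0.15, 0.20 and 0.27, and the knockout 2.41, 2.70, 2.43, 2.72 and 2.62. The lowest knockout dish of any time lay above the highest wild type dish of any time. Knockout minus wild type was 1.42 ± 0.12 in basal dishes (2.67-fold, limma adjusted p = 8.54e-12) and 1.36 ± 0.12 at 24 h (adjusted p = 3.13e-11). The order of group means was knockout basal 2.89, knockout 48 h 2.57, knockout 24 h 2.49, wild type basal 1.47, wild type 24 h 1.13 and wild type 48 h 0.40. Neighbours in this order overlapped, except knockout 24 h and wild type basal.

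With BDNF the Id3 level was lower in both genotypes. In wild type the difference from basal was -0.34 ± 0.12 at 24 h and -1.08 ± 0.12 at 48 h, and the 48 h dishes did not overlap the basal ones. In the knockout it was -0.40 ± 0.12 at 24 h and -0.32 ± 0.12 at 48 h, with overlap at each time through knockout basal replicate 2.

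Msx2 encodes a homeobox repressor and is a marker of BMP signalling in dorsal forebrain and skull tissue. Wild type basal dishes lay at -0.83, -0.41, -0.52, -0.42 and -0.49, below the array median, and knockout basal dishes at 0.61, 0.41, 0.58, 0.53 and 0.51, above it. At 24 h the values were -0.70, -0.67, -0.49, -1.03 and -0.75 in wild type dishes and 0.28, 0.34, 0.49, 0.50 and 0.54 in knockout dishes. The 2 genotypes did not overlap at either time. The difference was 1.06 ± 0.16 in basal dishes (2.09-fold) and 1.16 ± 0.16 at 24 h.

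At 48 h the wild type Msx2 signal stood at -1.74, -1.23, -1.97, -2.68 and -1.47, each below every basal and 24 h dish. The knockout stood at 0.32, 0.13, 0.22, 0.15 and 0.12, each below every knockout basal dish. The log2 difference from basal was -1.28 ± 0.16 for wild type and -0.34 ± 0.16 for the knockout. At 24 h it had been -0.19 ± 0.16 and -0.10 ± 0.16, with overlap. The wild type 48 h dishes were also the most scattered of the Msx2 groups (SD 0.56, against 0.08 to 0.19 in the others).

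Id1 followed the same pattern with smaller differences. Its wild type basal levels were 0.64, 0.63, 0.50, 0.61 and 0.75, and its knockout basal levels 1.12, 1.05, 1.13, 1.20 and 1.35. The genotypes were separate at each of the 3 times. Knockout minus wild type was 0.54 ± 0.12 in basal dishes (limma adjusted p = 0.000544) and 0.61 ± 0.12 at 24 h (adjusted p = 0.000153). In wild type the level was lower by a mean of 0.25 at 24 h (log2 difference -0.25 ± 0.12) and 0.81 at 48 h (-0.81 ± 0.12), where the dishes read -0.40, 0.11, -0.23, 0.11 and -0.49. In the knockout the 48 h dishes read 0.58, 1.19, 1.01, 1.17 and 1.09 and overlapped the basal ones (-0.16 ± 0.12).

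Msx1, the other homeobox gene, lay at 1.77, 1.07, 1.45, 1.27 and 1.03 in wild type basal dishes and at 1.81, 1.74, 1.80, 1.79 and 1.93 in knockout basal dishes. The groups overlapped through wild type replicate 1. Knockout minus wild type was 0.49 ± 0.13 (limma adjusted p = 0.00382) in basal dishes and 0.56 ± 0.13 at 24 h (adjusted p = 0.00114). At 48 h the wild type values of 0.83, 0.53, 0.39, 0.54 and 0.83 were below all wild type basal dishes (log2 difference -0.70 ± 0.13). The knockout values of 1.33, 1.62, 1.47, 1.56 and 1.37 were below all knockout basal dishes (-0.35 ± 0.13). The other Msx1 probe set was dimmer and gave a genotype difference of 0.30 ± 0.21 in basal dishes and 0.63 ± 0.21 at 24 h. In a fit of all probe sets its limma adjusted p was 0.405 in basal dishes and 0.0454 at 24 h. From basal to 48 h of BDNF this probe set gave -0.54 ± 0.21 in wild type and -0.01 ± 0.21 in the knockout.

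Id4 and Id2, which are strongly expressed in neural progenitors, differed less between the genotypes in basal dishes than Bmp4, Id3, Msx2, Id1 and Msx1. Id4 levels of 4.99, 5.20, 5.24, 5.21 and 5.16 in wild type basal dishes and 5.27, 5.28, 5.36, 5.44 and 5.37 in knockout basal dishes did not overlap, with a difference of 0.18 ± 0.06 (limma adjusted p = 0.0262). At 24 h it was 0.31 ± 0.06 (adjusted p = 0.000217). The other Id4 probe sets gave -0.02 ± 0.10 and -0.14 ± 0.11 in basal dishes and 0.05 ± 0.10 and 0.19 ± 0.11 at 24 h, and neither passed at either time in a fit of all probe sets, so both calls rest on 1 of 3 probe sets. The basal call was lost when probe sets were averaged (0.00). It was also lost without wild type basal replicate 1 (0.14) or knockout basal replicate 3 (0.18) or 4 (0.16), without rescaling of the arrays and with a measure of RNA quality, the 3'/5' ratio of Gapdh, in the fit. At 48 h Id4 was lower than basal by a mean of 0.29 in wild type (log2 difference -0.29 ± 0.06) and 0.15 in the knockout (-0.15 ± 0.06). Without rescaling the wild type difference turned to 0.02.

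The level of Id2 was 5.11, 5.13, 5.00, 5.01 and 5.31 in wild type basal dishes and 4.76, 5.03, 4.80, 5.15 and 4.82 in knockout basal dishes, which overlapped, and the difference of -0.20 ± 0.12 did not pass the test (limma adjusted p = 0.200). At 24 h the knockout values of 4.49, 4.07, 4.41, 4.03 and 4.22 lay below the wild type values of 4.96, 4.93, 4.85, 4.50 and 4.79. That difference of -0.56 ± 0.12 is a description, because Id2 was picked on the knockout 24 h dishes. With BDNF the level was lower in the knockout by a mean of 0.67 at 24 h (log2 difference -0.67 ± 0.12) and 0.61 at 48 h (-0.61 ± 0.12), and in wild type by 0.30 at 24 h (-0.30 ± 0.12) and 0.44 at 48 h (-0.44 ± 0.12). With this brightest probe set the BDNF dishes lay below every basal dish in all 4 of these comparisons. Without rescaling the wild type 48 h difference was -0.13 for Id2, -0.38 for Msx1 and -0.49 for Id1. A dimmer Id2 probe set gave -0.35 ± 0.18 at 24 h and -0.35 ± 0.18 at 48 h in the knockout. In wild type it gave 0.02 ± 0.18 and -0.17 ± 0.18. The dimmest Id2 probe set gave 0.06 ± 0.22 and -0.32 ± 0.22 in the knockout and 0.08 ± 0.22 and 0.10 ± 0.22 in wild type.

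**Figure D1:**
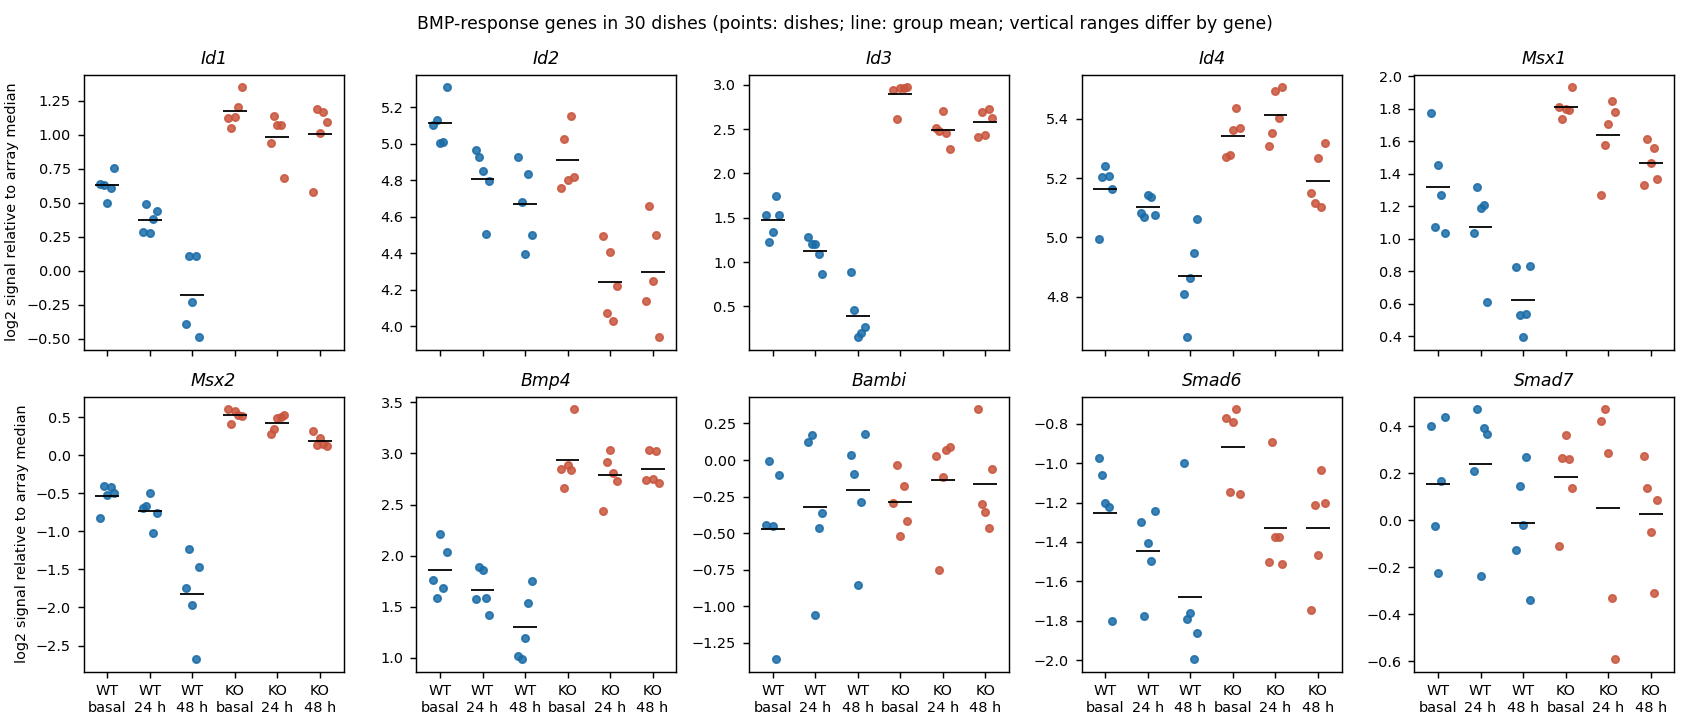
Log2 signal relative to the array median (vertical axis, its range set per gene) of the 10 genes in each of the 30 dishes, wild type (WT) in blue and knockout (KO) in red, in 6 groups of 5. Points are dishes and lines are group means; for Id3 every knockout dish lies above every wild type dish, whereas Bambi and Smad7 dishes of all groups overlap.

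Of the feedback inhibitors of the pathway, Smad7 and Bambi showed little separation. Smad7, an inhibitory SMAD that blocks receptor access, read from -0.22 to 0.44 in wild type basal dishes (median 0.17) and from -0.11 to 0.36 in knockout basal dishes (median 0.26), and its genotype difference was 0.03 ± 0.18 in basal dishes (limma adjusted p = 0.914) and -0.19 ± 0.18 at 24 h (adjusted p = 0.449). Bambi, a receptor-like decoy without a kinase domain, read from -1.36 to 0.00 in wild type basal dishes and from -0.52 to -0.03 in the knockout (difference 0.18 ± 0.23, limma adjusted p = 0.586). Its dishes overlapped in every comparison. Bambi was the gene of the 10 whose mean was higher after 48 h of BDNF in both genotypes, by 0.27 ± 0.23 in wild type and 0.12 ± 0.23 in the knockout; without rescaling the wild type means of Smad7 and Id4 were higher as well (0.15 and 0.02). The inhibitory SMAD gene Smad6, too dim to be tested, lay between -1.80 and -0.97 in wild type basal dishes and between -1.16 and -0.73 in knockout basal dishes. Its genotype difference was 0.33 ± 0.18 in basal dishes and 0.11 ± 0.18 at 24 h. From basal it differed by -0.19 ± 0.18 at 24 h and -0.43 ± 0.18 at 48 h in wild type. In the knockout these values were -0.41 ± 0.18 and -0.41 ± 0.18. The groups overlapped in each of these comparisons.

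The genotype comparison of the whole set can be read against the array. In basal dishes 6 of the 9 tested genes were called higher in the knockout, Msx2 among them, and 0 lower (0 also at an unadjusted limma p under 0.05), where 9.20% of all tested genes were called higher and 18.7% lower. At 24 h the same 6 were called higher and 1, Id2, was called lower, where 8.43% of all were called higher and 17.8% lower. With Msx2 set aside for the way it passed the signal limit, and Id2 at 24 h because it was picked there, 5 genes were called higher at each time: Id1, Id3, Id4, Msx1 and Bmp4. The share of calls over all genes that were higher depended on scaling: in basal dishes it was 33.0%, but 46.7% under quantile normalization, 46.8% under 75th percentile scaling and 73.4% without rescaling. The median difference over the 10 genes was 0.41 in basal dishes and 0.44 at 24 h, beside -0.09 and -0.09 over all tested genes. Of the 10, 5 had all knockout dishes above all wild type dishes at each of these times, against 5.08% and 4.68% of all measured genes. The higher levels of Id1, Id3, Msx1 and Bmp4 kept their call under every alternative processing that tested them. Basal dishes were the baseline of the BDNF comparisons on which genes were picked, so these counts are not independent of that choice.

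At 48 h the genotype difference uses the wild type dishes on which Msx2, Id3 and Id1 were picked and is given without a test. It was 2.18 ± 0.12 for Id3 (4.53-fold), 2.00 ± 0.16 for Msx2, 1.55 ± 0.14 for Bmp4, 1.19 ± 0.12 for Id1, 0.84 ± 0.13 for Msx1, 0.32 ± 0.06 for Id4 and -0.37 ± 0.12 for Id2. Of the 10 genes, 6 had all knockout dishes above all wild type dishes, where 5.69% of all measured genes did. Nothing is read from this count, since the picks on these dishes bear on it. For Id2 the genotypes overlapped. Smad6 (0.35 ± 0.18), Smad7 (0.04 ± 0.18) and Bambi (0.04 ± 0.23) overlapped as well.

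**Figure D2:**
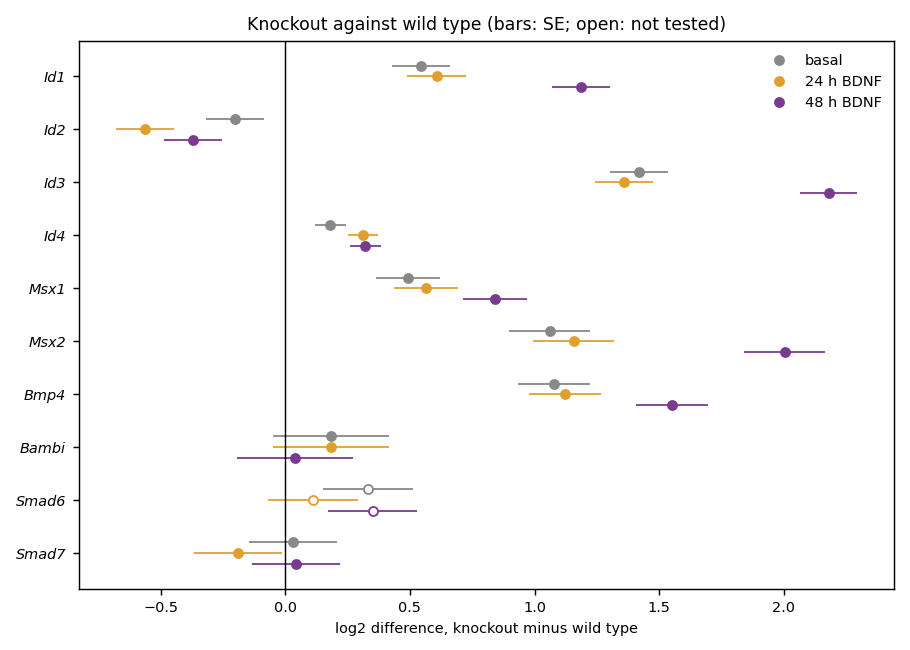
Log2 difference, knockout minus wild type (horizontal axis), for each of the 10 genes (rows) in basal dishes, after 24 h and after 48 h of BDNF; points are differences of group means over 5 dishes each, bars are SEs and open points mark Smad6, which was not tested. Id3, Msx2 and Bmp4 lie above 1 at every time and Id2 lies below 0.

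Over the BDNF comparisons the set was lower on average in wild type at 48 h. The median difference of the 10 genes from basal was -0.19 at 24 h and -0.50 at 48 h in wild type dishes, and -0.16 and -0.24 in knockout dishes, beside medians over all tested genes of 0.01, 0.02, 0.00 and 0.04. From 24 h to 48 h it was -0.31 for wild type and -0.01 for the knockout. The genes called lower from basal numbered 1 and 7 of 9 in wild type and 2 and 3 of 9 in the knockout, where 6.40%, 15.7%, 5.55% and 9.47% of all tested genes were called lower. Nothing is read from these counts, since such decreases chose the genes. The genotype difference of the 48 h response, knockout minus wild type, was 0.94 ± 0.23 for Msx2, 0.76 ± 0.16 for Id3, 0.64 ± 0.17 for Id1, 0.47 ± 0.20 for Bmp4 and 0.35 ± 0.18 for Msx1. These values also rest on the dishes on which genes were picked. At 24 h the response differences of these 5 genes lay between -0.06 and 0.10.

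Array medians and the 3'/5' ratio of Gapdh shifted in the 48 h dishes. Medians were 106 to 128 intensity units in wild type at 48 h, against 85.2 to 103 in basal dishes, and 112 to 138 in the knockout against 96.7 to 112. The ratio averaged 2.86 in wild type basal dishes, 2.83 at 24 h and 2.47 at 48 h, and 2.73, 2.80 and 2.39 in the knockout. With the ratio in the fit the wild type 48 h difference was -1.32 for Msx2, -1.13 for Id3 and -0.87 for Id1. With the 48 h replicates 1 and 2 alone these were -0.95, -0.79 and -0.77. Their part in the 48 h differences was not tested further.

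**Figure D3:**
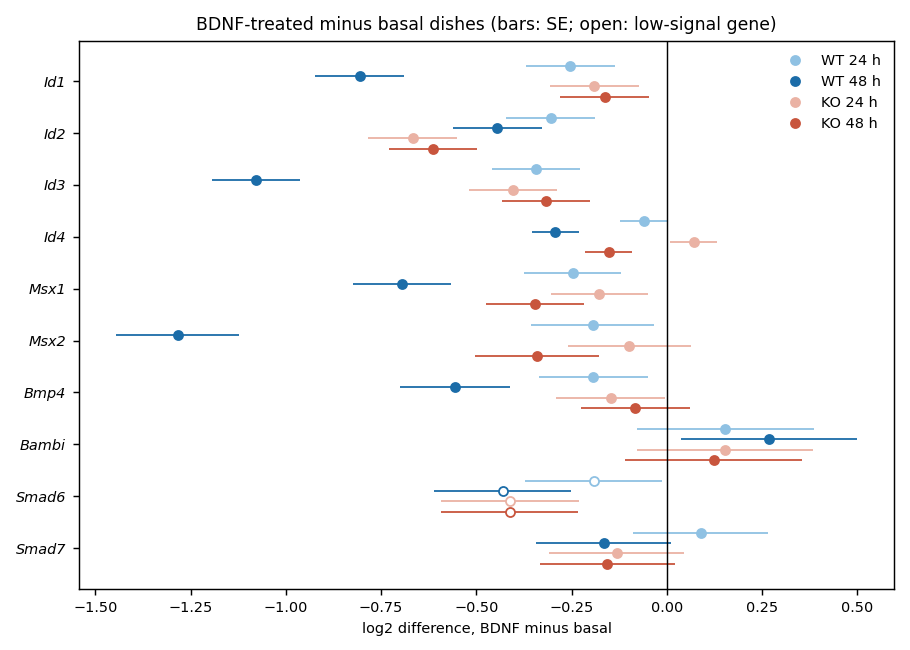
Log2 difference, BDNF-treated minus basal dishes (horizontal axis), for each of the 10 genes (rows) at 24 h and 48 h in wild type (WT, blue) and knockout (KO, red); points are differences of group means over 5 dishes each, bars are SEs and open points mark Smad6. The wild type 48 h points of Msx2 (-1.28), Id3 (-1.08) and Id1 (-0.81) stand furthest to the left, while the knockout points of these genes lie between -0.41 and -0.09.

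Across the 30 dishes Id1, Id3, Msx1, Msx2 and Bmp4 varied together, with Pearson r between 0.82 and 0.94 for their 10 pairs. Within groups, after removal of group means, r of these pairs lay between -0.28 and 0.44. Over the 30 dishes Id4 was close to these 5 genes as well, with r of 0.74 to 0.82. Smad6 had r of 0.40 to 0.60 with them, Smad7 -0.06 to 0.19, Bambi -0.05 to 0.09 and Id2 -0.36 to -0.11. The dishes of a genotype share a pool of cells and the genes share each array. Among 7427 other genes, those closest to Id3 were Gsn (gelsolin, which severs actin filaments; r = 0.967), Gja1 (connexin 43; 0.966), Egfl6 (0.966), Marveld1 (0.964) and Prrx1 (a mesenchymal homeobox gene; 0.963). For Msx2 they were Gsn (0.932), Grb10 (0.931), Anxa2 (0.928), Dcxr (0.925) and Fam114a1 (0.921). For Id1 they were Cox6b2 (0.939), Gsn (0.921), Itgb5 (0.920), Fbln5 (0.916) and Cald1 (0.914). Gsn was among the 5 closest of each of the 3 genes.

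Markers of other cell types also differed between the genotypes. The marker lists were made with earlier results of these data known, so counts of their calls are not independent of these data. All 8 tested genes of the meningeal and mesenchymal list, out of 9 listed, were called higher in the knockout in basal dishes, where 9.20% of all tested genes were, with a median difference of 1.06. All 8 were also called higher at 24 h, against 8.43% of all (median 1.03). Among them were Foxd1 (2.05 ± 0.15), Lum (1.99 ± 0.15) and Dcn (1.41 ± 0.19; limma adjusted p = 6.75e-07), and the summed signal of the list was 72.2 to 105 array medians in wild type dishes and 159 to 212 in knockout dishes. The choroid plexus list summed to 117 to 158 in wild type and 7.23 to 47.1 in the knockout. Over its 7 measured genes the median difference was -0.57 in basal dishes, -0.49 at 24 h and 0.07 at 48 h. At these times 5, 4 and 3 of the 7 were lower in the knockout, so the sum does not describe every gene of the list. Of its 3 tested genes, Ttr (-3.56 ± 0.46) and Folr1 (-2.30 ± 0.15) were called lower in knockout basal dishes and Otx2 was called higher (0.74 ± 0.12; limma adjusted p = 9e-06). The telencephalic genes summed to 11.0 to 15.6 in wild type and 6.35 to 8.95 in the knockout, and the astrocyte genes to 11.9 to 18.6 and 6.47 to 10.2. Of the 6 astrocyte genes, 5 lay below the array median in basal dishes of each genotype. The 2 tested, Aldoc and Aldh1l1, were called lower in knockout basal dishes, where 18.7% of all tested genes were. The median difference over the 6 was -0.13 in basal dishes, -0.46 at 24 h and -0.01 at 48 h. At these times 4, 6 and 4 of them were lower in the knockout. All 5 genes of the vascular endothelium list were below the array median in every group. Of 6 tested neuronal markers, Dcx was called lower in knockout basal dishes. At 24 h Dcx and Snap25 were called lower, and at 48 h Map2, Dcx and Snap25. At each time 0 were called higher. Over all tested genes 18.7%, 17.8% and 14.4% were called lower and 9.20%, 8.43% and 9.68% higher. Each Snap25 call was lost in 6 of 10 fits with 1 dish left out. The part of these differences in those of the BMP-response genes was not tested. In bulk RNA fewer cells of a type and less RNA per cell cannot be told apart.

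With BDNF the meningeal and mesenchymal list moved less. In wild type its sum was 85.6 to 105 in basal dishes and 72.2 to 86.7 at 48 h. Foxc1, Col1a2 and Col3a1 fell and Lum rose at 48 h, and the list's median difference over 8 tested genes was -0.23. In the knockout the sum was 176 to 212 in basal dishes and 159 to 181 at 48 h, and the median difference was -0.10.

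**Figure D4:**
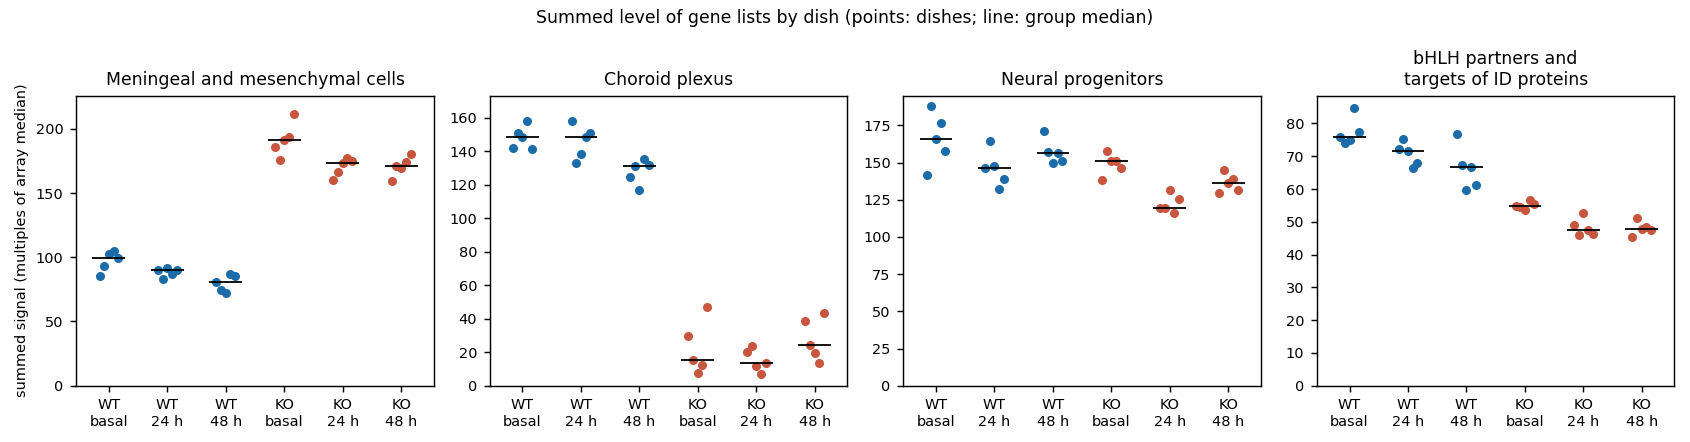
Summed signal in multiples of the array median (vertical axes, from 0) of 4 gene lists in each of the 30 dishes, in 6 groups of 5 (WT wild type, blue; KO knockout, red); points are dishes and lines are group medians. The meningeal and mesenchymal sum is 159 to 212 in knockout dishes and 72.2 to 105 in wild type dishes, and the sum of bHLH partners and targets is 45.4 to 56.5 and 59.6 to 84.6.

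Other genes of the BMP pathway were taken from a list of 59, of which 52 were measured and 29 tested. The list was made with earlier results of these data known. Its calls and counts, here and for each of its groups below, are therefore not independent of these data. Among ligands, Gdf10, a BMP-like factor also called BMP3B, rose with BDNF in wild type at 24 h (0.49 ± 0.12) and 48 h (1.12 ± 0.12, from a level of 0.26 to 1.38; limma adjusted p = 1.6e-08) and in the knockout at 48 h (0.55 ± 0.12). It was lower in the knockout by a log2 difference of -0.34 ± 0.12 in basal dishes, -0.78 ± 0.12 at 24 h and -0.91 ± 0.12 at 48 h. The basal call was lost in 9 of 22 alternatives. Bmp7 was the other tested ligand and was called in no comparison.

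Of 8 receptor genes 6 were tested. With 48 h of BDNF in wild type 2 rose and 2 fell, where 20.5% and 15.7% of all tested genes did. At 48 h Bmpr2, the BMP type II receptor, rose by 0.69 ± 0.21 in wild type and 0.68 ± 0.21 in the knockout, calls that ended with the Gapdh 3'/5' ratio in the fit (0.33 and 0.01). Acvr2b, an activin type II receptor that BMPs also use, fell in wild type (log2 difference -0.43 ± 0.11 at 24 h and -0.67 ± 0.11 at 48 h; limma adjusted p = 2.75e-05) and was lower in knockout basal dishes (-0.34 ± 0.11). The co-receptor gene Eng fell in wild type at 48 h (-0.53 ± 0.19), a call lost in 10 of 22 alternatives. Bmpr1a, a type I receptor, rose in wild type at 48 h (0.23 ± 0.08) with its brightest probe set but not when its probe sets were averaged (-0.03). The call was lost in 11 of 23 alternatives. Acvr2a was called lower in the knockout at 24 h (-0.27 ± 0.10), a call lost in 11 of 23 alternatives.

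Smad4, the common partner of the receptor-activated SMADs, was lower in the knockout at all 3 times, by log2 differences of -0.41 ± 0.07 (limma adjusted p = 4.95e-05), -0.44 ± 0.07 and -0.27 ± 0.07. In wild type Smad4 also fell at 48 h of BDNF (-0.30 to -0.19 with 1 dish left out), a call lost in 1 of these 10 fits. Smad1 and Smad5 were called in no comparison. The extracellular antagonist gene Fst (follistatin) was higher in the knockout by 0.50 ± 0.13, 0.57 ± 0.13 and 0.81 ± 0.13 and fell in wild type at 48 h (-0.54 ± 0.13; limma adjusted p = 0.00158). Nog was below the signal limit. The SMAD-binding repressor gene Zeb2 fell in wild type at 24 h (-0.42 ± 0.10) and 48 h (-0.51 ± 0.10) and was lower in knockout basal dishes (-0.46 ± 0.10). Of the other modulators, Twsg1 rose in the knockout from basal to 48 h of BDNF and Tob1 fell there at 24 h. Skil was called higher in knockout basal dishes and Ski lower in the knockout at 24 h. With 1 dish left out these differences were 0.23 to 0.39, -0.44 to -0.24, 0.23 to 0.29 and -0.42 to -0.26. The calls were lost in 5, 7, 0 and 1 of 10 such fits.

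Of 12 further genes reported as BMP targets, 11 were measured and 5 tested, and they divided between the genotypes. Higher in the knockout were Snai2, a neural crest and mesenchyme factor (1.46 ± 0.20 in basal dishes, 0.89 ± 0.20 at 24 h and 1.16 ± 0.20 at 48 h), Gata2 (0.87 ± 0.16, 1.09 ± 0.16 and 1.05 ± 0.16; limma adjusted p = 5.42e-05 in basal dishes) and Hes1, a repressor downstream of Notch (0.41 ± 0.13, 0.58 ± 0.13 and 0.47 ± 0.13). Dlx5, a homeobox gene of GABAergic precursors, was lower (-0.88 ± 0.17, -1.03 ± 0.17 and -0.62 ± 0.17), as was Hey1 in basal dishes (-0.30 ± 0.11, lost in 11 of 22 alternatives). At 48 h of BDNF Gata2 fell in wild type (-0.80 ± 0.16) and in the knockout (-0.62 ± 0.16). Hes1 fell in both as well (-0.43 ± 0.13 and -0.36 ± 0.13), Hey1 fell in wild type (-0.35 ± 0.11) and Snai2 in the knockout (-0.55 ± 0.20). The knockout call of Hes1 was lost in 8 of 22 alternatives, among them without basal replicate 4 or 5 or 48 h replicate 2 or 3, and that of Snai2 in 7 of 22, among them without basal replicate 1 or 5 or 48 h replicate 1.

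The bHLH partners and targets of ID proteins were mostly lower in the knockout. Of 10 listed, 7 were tested, and 5 were called lower in the knockout in basal dishes, 4 at 24 h and 4 at 48 h, where 18.7%, 17.8% and 14.4% of all tested genes were. They were Tcf4, which encodes an E protein that pairs with proneural factors (-0.85 ± 0.07, -0.99 ± 0.07 and -0.85 ± 0.07; limma adjusted p = 2.47e-11 in basal dishes), the proneural gene Neurog2 (-0.81 ± 0.12, -0.84 ± 0.12 and -0.57 ± 0.12), the neuronal differentiation genes Neurod1 (-0.97 ± 0.10, -1.22 ± 0.10 and -1.18 ± 0.10) and Neurod2 (-1.23 ± 0.27, -0.93 ± 0.27 and -1.66 ± 0.27), and in basal dishes Olig1 (-0.54 ± 0.18).

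With BDNF at 48 h 5 of these 7 genes fell in wild type, namely Neurod2 (-0.87 ± 0.27), Neurog2 (-0.63 ± 0.12; limma adjusted p = 9.52e-05), Neurod1 (-0.33 ± 0.10), Tcf4 (-0.23 ± 0.07) and Tcf12 (-0.16 ± 0.06), where 15.7% of all tested genes were called lower. The Tcf12 call was lost in 11 of 23 alternatives, among them without wild type basal replicate 3, 4 or 5 or 48 h replicate 2, 3 or 5 (-0.20 to -0.13), and that of Tcf4 in 7 of 23. In the knockout 4 fell, against 9.47% of all, namely Neurod2 (-1.30 ± 0.27), Neurod1 (-0.55 ± 0.10), Neurog2 (-0.40 ± 0.12) and Tcf4 (-0.22 ± 0.07). Without rescaling the differences of Tcf4 in both genotypes and of Tcf12 turned positive. Olig1, an oligodendrocyte lineage gene, rose in wild type (0.58 ± 0.18) and in the knockout (0.70 ± 0.18).

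Over the whole list of 29 tested pathway genes, 5 were called higher and 11 lower in the knockout in basal dishes, where 9.20% and 18.7% of all tested genes were. At 24 h 4 and 9 were called, against 8.43% and 17.8%, and at 48 h 4 and 7, against 9.68% and 14.4%. With BDNF at 48 h 4 were called higher and 13 lower in wild type, where 20.5% and 15.7% of all tested genes were called, and 4 and 7 in the knockout, against 19.4% and 9.47%. The median difference over the 29 was -0.07 in basal dishes, -0.13 at 24 h and -0.09 at 48 h between genotypes, beside -0.09, -0.09 and -0.07 over all tested genes. At 48 h of BDNF it was -0.16 for wild type and -0.15 for knockout dishes, beside 0.02 and 0.04. For the genotype difference of the BDNF response 0 of the 29 passed the limma test at 24 h, against 0.0941% of all tested genes. At 48 h 0 passed, against 0.134%. An unadjusted limma p under 0.05 was reached by 4 of the 29 at each time. The share of all tested genes at that limit was not counted, so nothing is read from it.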

How the data were processed

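RNA from 30 dishes in 6 groups of 5 was measured on Affymetrix Mouse Genome 430A 2.0 arrays. The deposited values are linear signal intensities that the authors computed with MAS5, per the submitters' design text; the version is not given in the sources used here. A division by the array median that this text names is not visible in the deposited intensities, so it was done here, with a floor of 0.1 of the median before log2. Of 22690 probe sets, 20393 had 1 gene symbol, 691 several and 1606 none in the platform annotation. The brightest probe set by mean stood for each of 12394 genes, and the upper 60% by mean log2 signal (7436) were tested. The fit used limma 3.58.1 (R 4.3.3; empirical Bayes with intensity trend) and took 1 mean per group over the 30 arrays. Its 11 comparisons were each adjusted over 7436 genes by the Benjamini-Hochberg method, two-sided, threshold 0.05; "rose", "fell" and "called" mean past it. SE is the fit's standard error. The scripts were tested on simulated data.

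The 10 genes and all gene lists were chosen with earlier results of these data known. Named were the 10 genes, the pathway genes called in a comparison (up to 4 per direction and group) and up to 3 markers per list. Also named were the 5 closest genes by Pearson r for Id1, Id3 and Msx2. Bmp7, Smad1, Smad5, Nog, Tcf12, Vim and Dcx were named after their values were seen. So were the basal genotype difference of Olig1 and the wild type 48 h changes of Foxc1, Col1a2, Col3a1 and Lum. Alternatives changed the scaling, floor, pseudocount, filter, probe set rule, arrays fitted, trend, replicate block, RNA quality covariate, 48 h replicates and, in turn, each array. The number of arrays limits the precision.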

Additional observations from a re-analysis of the deposited data

Results flagged for a closer look

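In 6 of 60 gene-by-group sets of 5 dishes 1 dish stood apart by Dixon's test at its 95% critical value of 0.71, which chance flags in about 1 of 20. Id3 in knockout basal replicate 2 was 2.62, below the other 4 at 2.94 to 2.97. Id1 in knockout 48 h replicate 1 was 0.58, with the next at 1.01. Msx2 in wild type basal replicate 1 was -0.83, with the next at -0.52. Bambi in knockout 24 h replicate 2 was -0.75, with the next at -0.12. Smad6 stood high in wild type 48 h replicate 1 (-0.998, next -1.76) and in knockout 24 h replicate 2 (-0.89, next -1.37), at signals below those tested.

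The Id3 response to 48 h of BDNF differed between genotypes by 0.76 ± 0.16 (knockout minus wild type, interaction term of the fit). It is given without a p-value, since Id3 was picked on its wild type decrease. As a description, it was past the threshold over all genes in the main fit but not in 28 of 34 alternatives, which gave 0.45 to 0.88. For the same reason neither outcome is read as a test.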

How the results depend on the processing

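The median BDNF difference of the 10 genes from basal kept its sign in all 23 alternatives, except without rescaling for the knockout at 48 h. From 24 h to 48 h it kept its sign in 22 of 23 in wild type and, near 0, in 18 of 23 in the knockout. Without rescaling of the arrays it became -0.19 for wild type 48 h against basal, 0.0058 for wild type 48 h against 24 h, 0.0077 for knockout 48 h against basal and 0.17 for knockout 48 h against 24 h. In that setting the median of all tested genes also moved to 0.34, 0.33, 0.29 and 0.23. The distance of the 10 genes from it was -0.52, -0.33, -0.29 and -0.06 with and without rescaling. Rescaling shifts all genes of an array by the same log2 amount, apart from the floor. This distance could therefore hardly change, and nothing is read from its being the same. With the 3'/5' ratio of Gapdh in the fit the wild type medians were -0.69 for 48 h against basal and -0.46 for 48 h against 24 h. Also without rescaling, the 48 h differences from basal turned to 0.020 for Id4, 0.072 for Smad4, 0.087 for Tcf4 and 0.15 for Tcf12 in wild type and to 0.026 for Tcf4 in the knockout, and that of Id4 from 24 h to 0.082 in wild type. With the mean of probe sets that of Bmpr1a was -0.030.

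With the upper 40% of genes tested, fewer of the 10 genes could be called: 3 in basal dishes (6 before), 4 at 24 h (7) and 4 at 48 h (7). Counts at 48 h and of response differences, which use dishes the genes were picked on, and of Msx2 and Id2 within the others, are descriptions. Leaving out 1 dish at a time gave 5 to 6, 7 to 7 and 6 to 7 calls. For the genotype difference of the 48 h response the 1 gene past the threshold (Id3) became 0 under quantile normalization, 75th percentile scaling, no rescaling, a pseudocount, no filter, the 40% filter, the mean of probe sets, the arrays compared alone, no trend and the 48 h replicates 1 and 2 alone, and ranged from 0 to 1 with 1 dish left out.

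The share of all calls that were higher in the knockout at 24 h was 32.2%, and 51.4% under quantile normalization, 47.4% under 75th percentile scaling and 83.4% without rescaling. The pathway calls at 48 h of BDNF fell from 17 to 9 in wild type and from 11 to 4 in the knockout with the Gapdh covariate. Over all tested genes these calls fell from 2693 to 1470 and from 2147 to 992, and those from 24 h to 48 h from 1034 to 294 and from 732 to 55. The fit of all probe sets together was chosen after seeing the data.

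Replicate numbers were not taken to pair the dishes, since not every same-number pair correlated above 0.1: 23 of 75 did (-0.17 to 0.28, median 0.03). Between genotypes at the same time 2 of 5 pairs in basal dishes, 3 of 5 at 24 h and 4 of 5 at 48 h were above 0.1, and 4, 5 and 3 of 10 dishes correlated best with their own number. With the replicate block 6, 7 and 7 of the 10 genes were called in the genotype comparisons, the 48 h count again as a description. The medians were unchanged, and calls over all genes went up in all 11 comparisons, for example from 1074 to 1273 at 24 h in wild type.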

Other observations

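In basal dishes 4 of 8 neural progenitor genes were called lower in the knockout, among them Hes5 (-0.62 ± 0.19), Sox2 (-0.55 ± 0.08; limma adjusted p = 2.11e-06) and Slc1a3 (-0.49 ± 0.16), and Vim was called higher (0.24 ± 0.05), where 18.7% of all tested genes were called lower and 9.20% higher. The Slc1a3 call was lost without wild type basal replicate 2 or knockout basal replicate 1 or 3, and that of Hes5 without wild type basal replicate 4. The summed signal of the list was 142 to 188 array medians in wild type basal dishes and 138 to 158 in knockout basal dishes, with overlap. This list too was made with earlier results of these data known. With BDNF at 48 h the neuronal genes Nefl (1.15 ± 0.10 for wild type, 1.18 ± 0.10 for knockout dishes) and Snap25 (0.82 ± 0.08, 0.72 ± 0.08) rose in both genotypes, and Map2 rose in wild type (0.75 ± 0.20; limma adjusted p = 0.00383).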
